A study of Mus musculus with 6 samples.

Results

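The Eph receptors described here are Epha3, Epha4, Epha5, Epha6, Epha7, Epha8, Ephb1, Ephb2, Ephb3 and Ephb6, taken by symbol as 10 of the 23420 genes in a table of RNA sequencing counts. All 10 passed the filter on low counts and were among the 14618 genes tested. The libraries were made from mouse neocortex at embryonic day 18.5. One group, of 3 libraries, is labelled Tshz3 mutant, Tshz3 being a gene for a zinc finger transcription factor, and the other, also of 3 libraries, is labelled wild type. Each library was a pool of cortices from 3 to 4 embryos of multiple litters. The allele, its zygosity, the strain and the sex of the embryos are details not given in the sources used here.

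Eph receptors are receptor tyrosine kinases that bind ephrins on the surface of neighbouring cells. EphA receptors mostly bind the ephrin-A ligands, which are held in the membrane by a lipid anchor, and EphB receptors mostly bind the transmembrane ephrin-B ligands. Contact can signal into both cells and often repels growing axons and migrating neurons. In the developing cortex these genes are known for roles in area mapping, in the targeting of thalamocortical, callosal and corticospinal axons, and in dendritic spine formation.

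Total counts were 18569383 to 24147810 per library. Tshz3 itself was at 89.8, 93.1 and 99.2 CPM (counts scaled to a common library size, with TMM factors) in mutant-labelled libraries 1 to 3 and at 78.7, 83.0 and 89.3 CPM in wild-type libraries 1 to 3. It was therefore not lower under the mutant label. Every mutant-labelled library was above every wild-type one (edgeR adjusted p = 0.669, or 0.0525 with libraries paired by number). Since the mutated part of the gene is not given, its gene-level count checks neither the labels nor the directions below. The cortical markers Emx1 and Tbr1 were present in every library, the lower of them, Emx1, at 20.4 CPM or more. Emx1 was at 20.4, 22.3 and 21.7 CPM in mutant-labelled libraries 1, 2 and 3. In wild-type libraries 1, 2 and 3 it was at 27.1, 25.3 and 25.5 CPM, without overlap (edgeR adjusted p = 0.433, or 0.0693 with libraries paired by number). Libraries with the same number deviated from their group means in the same direction (correlations across genes of 0.614, 0.514 and 0.467 for numbers 1, 2 and 3). Each gene is therefore given both from a fit without pairing and, where it changes the call, from a fit with the library number as a replicate block, here called paired.

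Without pairing, no Eph receptor passed the threshold of 0.05 on the adjusted p. edgeR's quasi-likelihood test called 0 of 10 higher and 0 of 10 lower, beside 0.0479% and 0.0274% of all tested genes. None of the 10 had an unadjusted p under 0.05, which 7.09% of all tested genes had, and DESeq2 without the block called 0 of 10, beside 0.416% of the genes it tested called higher. When libraries were paired by number, Epha3 and Epha5 rose in the mutant-labelled libraries and none fell. These 2 of 10 stand beside 1.97% of all tested genes called higher and 1.49% called lower in that fit. At an unadjusted paired p under 0.05 there were 3 of 10 receptors (Epha3, Epha5 and Epha7), beside 17.9% of all tested genes. The median log2 fold change of the 10 receptors, mutant-labelled over wild type, was 0.09, and that of all tested genes was −0.01. The single changes were small, from −0.06 for Ephb3 to 0.30 for Epha3.

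Epha3 encodes an EphA receptor that binds ephrin-A ligands. It lies on the minus strand of chromosome 16 from 63543534 to 63864175 (GRCm38, the whole gene with exons and introns). Its level was 43.5, 65.6 and 55.2 CPM in mutant-labelled libraries 1, 2 and 3, and 34.3, 55.2 and 44.1 CPM in wild-type libraries 1, 2 and 3. The groups overlapped, because library 2 was the highest and library 1 the lowest in both genotypes. Within each number the mutant-labelled library was the higher one, by 0.34, 0.25 and 0.32 on the log2 scale. The group means were 54.8 ± 11.0 and 44.5 ± 10.4 CPM (SD, n = 3 each), a ratio of 1.23. Without pairing the log2 fold change was 0.30 (SE 0.21, edgeR adjusted p = 0.842), and the 95% interval ran from −0.19 to 0.79. With pairing it was again 0.30 (SE 0.06, adjusted p = 0.00962), with an interval from 0.18 to 0.43. DESeq2 with the block also called Epha3 (adjusted p = 0.0493), beside 0.981% of genes called higher by it. The paired call was lost without the libraries numbered 3 (adjusted p = 0.203, log2 fold change still 0.30) and held without those numbered 1 (0.0217) or 2 (0.000133). Those 3 fits called 0.238%, 0.969% and 7.65% of the genes they tested higher. In the unpaired fit the log2 fold change ran from 0.14 to 0.49 when any 1 library was left out.

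Epha5 encodes an EphA receptor with broad expression in the forebrain, and lies on the minus strand of chromosome 5 from 84054761 to 84417382. It was at 126, 165 and 142 CPM in mutant-labelled libraries 1, 2 and 3, and at 114, 145 and 127 CPM in wild-type libraries 1, 2 and 3. The order of the numbers was that of Epha3, and the groups overlapped. The mutant-labelled library exceeded its same-numbered partner by 0.15, 0.19 and 0.16 on the log2 scale. Means were 144 ± 19.6 and 129 ± 15.7 CPM (SD, n = 3 each), and the log2 fold change came to 0.17 (SE 0.12, edgeR adjusted p = 0.855) unpaired and 0.17 (SE 0.04, adjusted p = 0.0377) paired. The paired 95% interval was 0.08 to 0.25. The call did not hold in DESeq2 with the block (adjusted p = 0.206). In edgeR it was lost without the libraries numbered 1 (0.105) or 3 (0.330) and held without those numbered 2 (0.0197). Leaving out any 1 library moved the unpaired log2 fold change between 0.06 and 0.26.

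**Figure D1:**
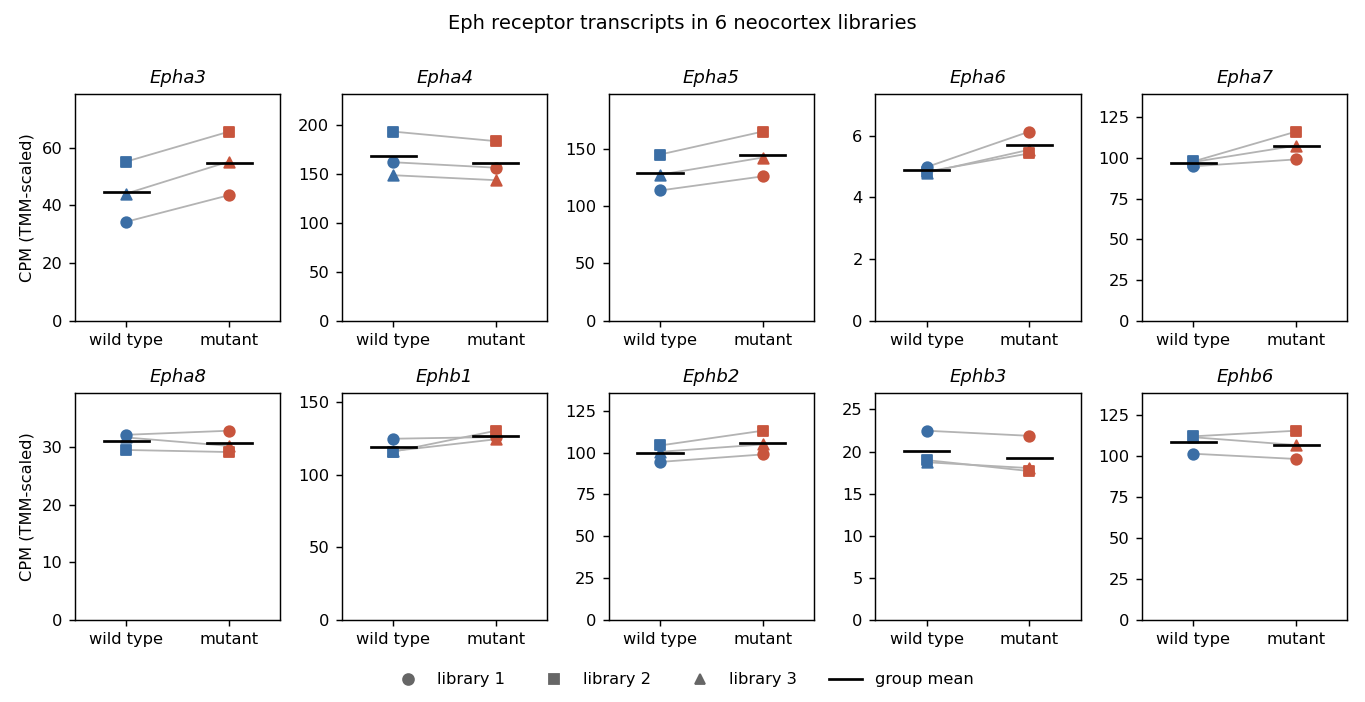
Each panel plots 1 receptor gene in TMM-scaled CPM (vertical axis from 0) for wild-type libraries on the left and mutant-labelled libraries on the right. Symbols mark the library number, grey lines join libraries of the same number and black bars are group means. The 3 lines of Epha3 and of Epha5 all slope upward although the groups overlap, while those of Epha4 and Ephb3 all slope slightly downward.

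The promoter sequences of Epha3 and Epha5, the receptors called with pairing, are shown with that of Epha4, which varied between libraries of different number but was not called. They are RefSeq windows on GRCm38.p6 from 250 bases before to 50 bases after the annotated start, written 5′ to 3′ on the gene's own strand, with CpG dinucleotides in capitals. The windows are chr16:63864126-63864425, chr5:84417333-84417632 and chr1:77515039-77515338, all on the minus strand.
Epha3: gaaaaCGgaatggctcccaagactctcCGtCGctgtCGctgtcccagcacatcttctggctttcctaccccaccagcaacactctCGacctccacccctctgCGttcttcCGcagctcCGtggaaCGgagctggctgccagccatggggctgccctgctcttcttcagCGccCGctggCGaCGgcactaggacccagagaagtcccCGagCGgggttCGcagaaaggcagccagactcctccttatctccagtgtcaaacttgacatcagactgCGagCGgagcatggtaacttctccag
Epha5: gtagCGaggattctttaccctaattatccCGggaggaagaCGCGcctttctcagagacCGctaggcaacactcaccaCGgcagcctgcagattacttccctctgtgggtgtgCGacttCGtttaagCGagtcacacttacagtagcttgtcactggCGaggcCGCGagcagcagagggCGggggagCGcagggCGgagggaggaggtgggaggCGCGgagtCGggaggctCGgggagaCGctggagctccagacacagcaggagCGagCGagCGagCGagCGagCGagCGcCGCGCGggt
Epha4: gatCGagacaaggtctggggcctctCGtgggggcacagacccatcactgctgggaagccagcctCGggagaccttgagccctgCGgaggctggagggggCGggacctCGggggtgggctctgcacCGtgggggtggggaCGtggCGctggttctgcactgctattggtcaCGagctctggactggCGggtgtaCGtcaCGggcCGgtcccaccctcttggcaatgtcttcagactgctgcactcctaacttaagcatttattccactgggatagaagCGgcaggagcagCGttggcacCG
They hold 18, 30 and 17 CpG dinucleotides in this order, against a median of 7 over the 32851 promoter windows of the table. Of all windows, 70.3%, 88.3% and 68.6% held fewer CpG than these, in the same order. A TATA box, searched as TATAAA on both strands, was in none of the windows of the 10 receptors and in 13.6% of all windows. A GC box, searched as GGGCGG on both strands, occurred 2 times for Epha5, 1 time for Epha4 and 0 times for Epha3, and at least once in 35.7% of all windows. The promoters of the other receptors held 14 CpG (Ephb1) to 56 CpG (Epha8). These matches describe the letters only, and no measurement of binding or methylation was made here.

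Epha7 and Epha6 were the receptors whose groups did not overlap. Complete separation with mutant-labelled libraries above was seen in 7.42% of all tested genes and in 2 of the 10 receptors, and separation the other way in 6.09% and in 0 of 10. Epha7, a repellent receptor for ephrin-A5 that marks areal boundaries in developing cortex, was at 99.2, 116 and 108 CPM in mutant-labelled libraries 1, 2 and 3, and at 94.9, 97.9 and 97.6 CPM in wild-type libraries 1, 2 and 3. The gap between the groups was narrow, 99.2 against 97.9 CPM. Its log2 fold change was 0.15 (SE 0.07, edgeR adjusted p = 0.714), and with pairing the adjusted p was 0.1003. Most of the difference came from the libraries numbered 2, at 0.25 on the log2 scale, against 0.06 and 0.14 for numbers 1 and 3.

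Epha6 had the lowest counts of the 10, from 88 to 130 reads per library. It was at 6.13, 5.42 and 5.54 CPM in mutant-labelled libraries 1, 2 and 3, and at 4.98, 4.83 and 4.79 CPM in wild-type libraries. All mutant-labelled libraries were above all wild-type ones, with differences of 0.29, 0.16 and 0.21 on the log2 scale within numbers. The log2 fold change was 0.23 (SE 0.14) with an edgeR adjusted p of 0.813, or 0.408 paired, and at this depth its paired interval ran from −0.06 to 0.51. A difference of the size seen for Epha3 lies inside that interval.

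Epha4, which is unusual in binding both ephrin classes and is needed for corticospinal tract formation, had the highest counts of the family. It was at 157, 184 and 144 CPM in mutant-labelled libraries 1, 2 and 3, and at 162, 193 and 149 CPM in wild-type libraries 1, 2 and 3. Library 2 was again highest in both genotypes, and the mutant-labelled library was the lower one in each number, with log2 ratios of −0.05, −0.07 and −0.05. The log2 fold change was −0.06 (SE 0.12, edgeR adjusted p = 0.968), and its sign turned without mutant-labelled library 3 (0.02) or wild-type library 2 (0.05). The paired interval, −0.14 to 0.02, did not reach the paired estimates of Epha3 or Epha5.

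Epha8 encodes an ephrin-A receptor best known from the midbrain. It was at 32.8, 29.1 and 30.2 CPM in mutant-labelled libraries 1, 2 and 3, and at 32.1, 29.5 and 31.6 CPM in wild-type libraries 1, 2 and 3. The groups overlapped almost fully, and the direction differed between numbers. Its log2 fold change was −0.02 (SE 0.08, edgeR adjusted p = 0.989), with a 95% interval of −0.19 to 0.16.

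**Figure D2:**
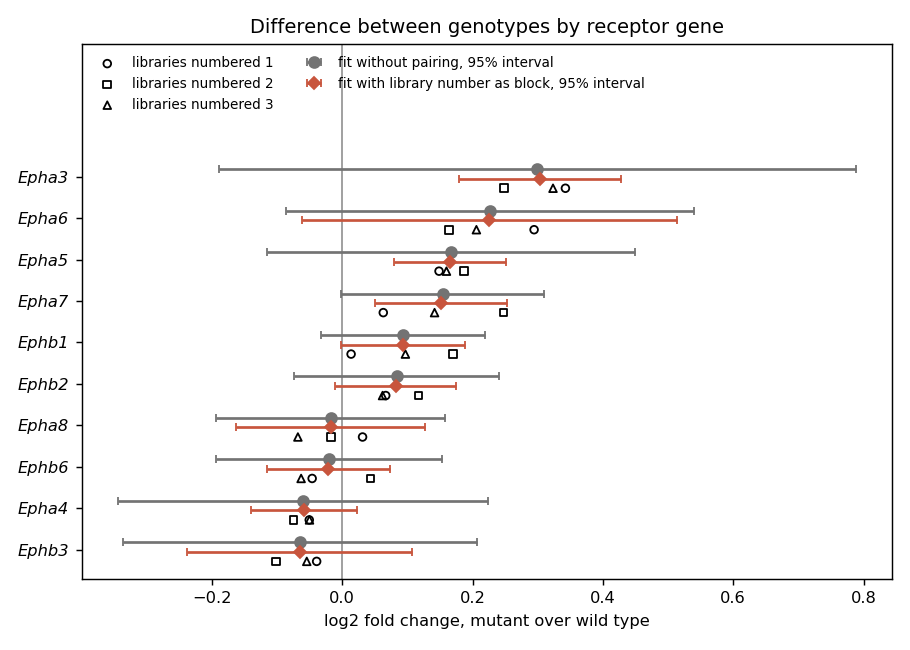
The horizontal axis gives the log2 fold change of each receptor, mutant-labelled over wild type. Grey circles and red diamonds are the estimates without and with pairing, bars are 95% intervals, and open symbols are the log2 ratios of same-numbered libraries. The red intervals of Epha3, Epha5 and Epha7 lie above 0, and those of Epha3 and Epha5 belong to adjusted p values under 0.05.

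Among the 4 EphB receptors none passed in either edgeR fit. Ephb1, which with other EphB receptors shapes synapses and axon paths, had 126.2, 130.5 and 124.6 CPM in mutant-labelled libraries 1, 2 and 3, and 125.0, 116.0 and 116.5 CPM in wild-type libraries 1, 2 and 3. Mutant-labelled libraries were higher within each number, by 0.01, 0.17 and 0.10 on the log2 scale, yet mutant-labelled library 3 lay just below wild-type library 1. The log2 fold change was 0.09 (SE 0.05, edgeR adjusted p = 0.813), or 0.287 as the adjusted p when paired.

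Ephb2, an EphB receptor of excitatory synapses, was at 99.0, 113 and 105 CPM in mutant-labelled libraries 1, 2 and 3, and at 94.5, 104 and 101 CPM in wild-type libraries 1, 2 and 3. It was higher in the mutant-labelled library of every number, and the groups overlapped. Its log2 fold change was 0.08 (SE 0.07, edgeR adjusted p = 0.879, paired 0.342).

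Ephb3, a receptor with known roles in commissural axon guidance, was at 21.9, 17.7 and 18.03 CPM in mutant-labelled libraries and at 22.5, 19.0 and 18.7 CPM in wild-type libraries 1, 2 and 3. Library 1 was the highest in both genotypes. The log2 fold change was −0.06 (SE 0.12, edgeR adjusted p = 0.965), and it turned to 0.02 without wild-type library 1.

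Ephb6 is the EphB receptor that lacks kinase activity. It was at 98.3, 116 and 107 CPM in mutant-labelled libraries 1, 2 and 3, and at 102, 112 and 112 CPM in wild-type libraries 1, 2 and 3. The groups overlapped, and only the libraries numbered 2 had the mutant-labelled one higher. The log2 fold change was −0.02 (SE 0.07, edgeR adjusted p = 0.989), with a 95% interval of −0.19 to 0.15.

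Across the family, 6 of 10 receptors (Epha3, Epha5, Epha6, Epha7, Ephb1 and Ephb2) were higher in the mutant-labelled library of all 3 numbers, and Epha4 and Ephb3 were lower in all 3. Among all tested genes, 19.3% were higher and 19.8% lower in all 3. The summed level of the 6 EphA members was 505 ± 53.4 CPM in mutant-labelled and 474 ± 45.2 CPM in wild-type libraries (SD, n = 3 each). For the 4 EphB members the sums were 359 ± 16.3 and 347 ± 4.02 CPM. Each sum was higher in the mutant-labelled library of all 3 numbers, the EphA sum at 464, 565 and 485 CPM against 442, 526 and 454 CPM and the EphB sum at 345, 377 and 354 CPM against 343, 351 and 347 CPM. The EphA sums overlapped between genotypes, as did the EphB sums, and neither was tested.

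Several receptors differed more between library numbers than between genotypes. In 9 of 10 receptors the highest library bore the same number in both genotypes, Ephb1 being the exception, and this was so for 54.8% of all tested genes. The whole order of the 3 numbers was shared in 7 of 10, and in 34.6% of all tested genes. Epha3 spanned −0.35 to 0.34 around its wild-type mean and −0.31 to 0.28 around its mutant-labelled mean on the log2 scale. In both genotypes library 2 was highest and library 1 lowest for Epha3, Epha5, Epha7, Ephb2 and Ephb6, while library 1 was highest for Epha6, Epha8 and Ephb3. What the numbers share is not given in the labels.

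**Figure D3:**
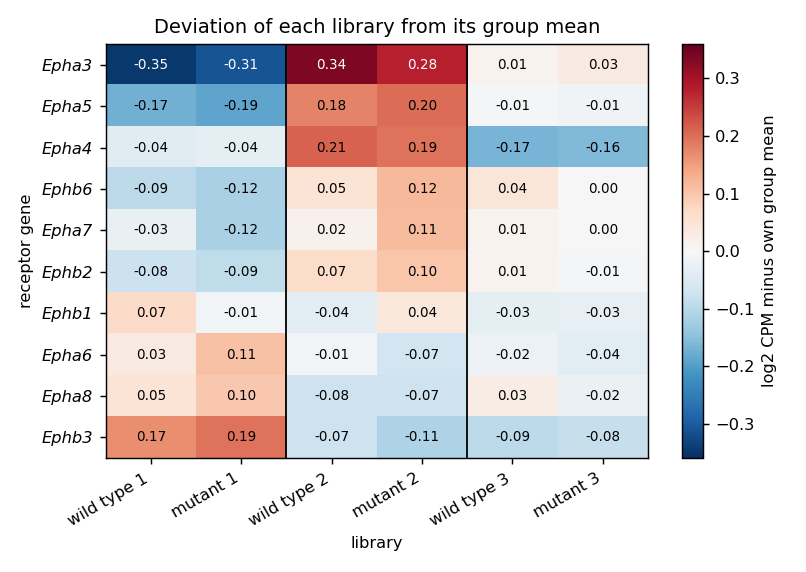
Each cell gives the log2 CPM of 1 library (columns, same numbers side by side) minus the mean of its own genotype, for 1 receptor gene (rows). Red is above and blue below the group mean. Both columns of a number carry like colours for Epha3, Epha4, Epha5 and Ephb3, with Epha3 between −0.35 and 0.34.

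Levels between receptors can be compared only per length. Divided by the length of all annotated exons, wild-type levels ran from 28.7 ± 1.59 CPM per kb for Ephb6 to 0.920 ± 0.0187 CPM per kb for Epha6 (SD, n = 3). After Ephb6 came Epha4 at 20.9 ± 2.85, Ephb1 at 17.0 ± 0.72 and Epha7 at 9.79 ± 0.165 CPM per kb, and by this length the wild-type libraries of each of these 4 did not overlap with those of the next. Ephb2 at 7.92, Epha5 at 7.69, Epha8 at 6.59 and Epha3 at 5.13 CPM per kb followed, each overlapping with its neighbour. Ephb3 stood at 3.02 ± 0.315 CPM per kb. By the longest coding transcript in place of all exons, Epha5 moved from place 6 to place 4 with 17.6 CPM per kb, because its annotated exons sum to 16739 bases and its longest coding transcript to 7328. By that length Epha4 was at 26.6 CPM per kb, with wild-type libraries from 23.5 to 30.6, and overlapped both Ephb6 (27.0 to 29.8) and Ephb1 (24.9 to 26.8). The wild-type means of these 3 kept their order by both lengths. The separation of Epha4 from Ephb6 and Ephb1 therefore depends on the length used. Epha6 kept the last place by both lengths, without overlap.

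**Figure D4:**
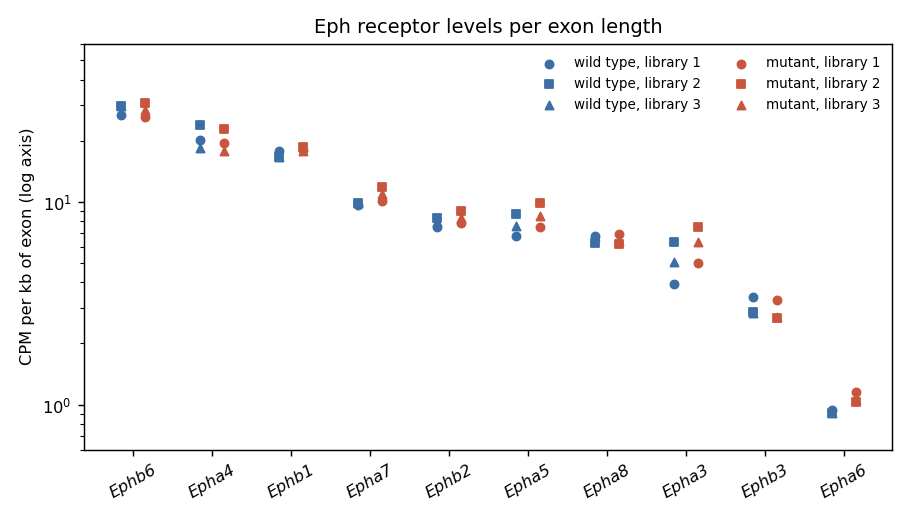
The vertical log axis gives CPM per kb of annotated exon for each receptor gene, ordered by its wild-type mean, with blue symbols for wild-type and red for mutant-labelled libraries and symbol shape for the library number. Ephb6 is highest near 28.7 and Epha6 lowest near 0.920 CPM per kb in wild type. The log axis makes differences within a receptor look small. Epha3 ran from 3.95 (wild-type library 1) to 7.55 CPM per kb (mutant-labelled library 2), and the blue and red symbols of Epha6 and Epha7 do not overlap.

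The ephrin ligands were all tested, and 0 of 8 passed in edgeR without or with pairing. In DESeq2 0 of 8 passed too, while 1 of 8 had an unadjusted edgeR p under 0.05 without pairing and 3 of 8 did with it, beside the 7.09% and 17.9% of all tested genes given above. Efna3, a lipid-anchored ligand of EphA receptors, was at 50.4, 49.95 and 46.2 CPM in mutant-labelled libraries 1, 2 and 3, and at 45.1, 41.4 and 40.7 CPM in wild-type libraries. These groups did not overlap, and the log2 fold change was 0.20 (SE 0.07, edgeR adjusted p = 0.555, paired 0.0765). Efnb2, a transmembrane ligand also found on arteries, was at 265, 266 and 258 CPM against 211, 259 and 238 CPM, where only wild-type library 2 reached the mutant-labelled range. Its log2 fold change was 0.16 (SE 0.08, edgeR adjusted p = 0.752, paired 0.119). Without the libraries numbered 1 and 3 the paired log2 fold change was 0.08 and 0.19 (edgeR adjusted p = 0.612 and 0.443), and without those numbered 2, in the fit that called 7.65% of genes higher, it was 0.22 (6.31e-05). The known ligand of Epha5 and Epha3, Efna5, had a mean of 31.7 CPM in mutant-labelled and 28.6 CPM in wild-type libraries, and Efna2 had 38.1 and 34.3 CPM. Efna1, Efna4, Efnb1 and Efnb3 had wild-type means of 4.41, 14.96, 80.8 and 273 CPM and mutant-labelled means of 4.01, 14.9, 80.9 and 268 CPM. Per kb of exon Efnb3, at 85.7 ± 5.98 CPM per kb in wild type, was above every receptor.

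Of the other Eph receptors in the table, 3 of 4 were tested and none passed. Ephb4, best known from veins, had means of 15.3 CPM in mutant-labelled and 14.3 CPM in wild-type libraries, and Epha10 had 11.9 and 10.7 CPM. Epha2 had 2.32 and 2.19 CPM. Epha1 had 0 to 4 reads per library and fell below the filter.

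The 13 proteases, phosphatases and binding partners had a median log2 fold change of 0.07. With pairing 1 of 13 rose, beside 1.97% of all tested genes called higher and 1.49% called lower in that fit. That gene is Ptpro, a receptor phosphatase known to act on Eph receptors, at 233, 271 and 266 CPM in mutant-labelled and 207, 229 and 252 CPM in wild-type libraries 1, 2 and 3. Its paired log2 fold change was 0.16 (SE 0.04, edgeR adjusted p = 0.0497), with 0.802 as the unpaired adjusted p and 0.117 in DESeq2 with the block. The paired edgeR call was lost without the libraries numbered 1 (adjusted p = 0.148) or 3 (0.239) and was borderline without those numbered 2 (0.0498).

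Genes with a library pattern like those of Epha3 and Epha5 were sought among the 10602 other genes with a mean log2 CPM of at least 3. Likeness was the root-mean-square distance between centred log2 CPM profiles over the 6 libraries. Nearest to Epha3 were Stard4, a sterol transport protein gene, at a distance of 0.04, and Nupl1, a nuclear pore gene, also at 0.04. Nearest to Epha5 were Trim2, a ubiquitin ligase gene, and Magi2, a synaptic scaffold gene, both at 0.03. All 6 libraries enter each profile, so the order of the numbers weighs in it together with genotype, and no test of genotype is given for genes chosen this way.

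In pooled tissue, fewer cells of a type and less RNA per cell cannot be told apart. The 7 deep-layer neuron markers summed to 1064 to 1127 CPM in mutant-labelled and 943.5 to 1026 CPM in wild-type libraries. With pairing 3 of 7 (Bcl11b, Fezf2 and Ldb2) rose, beside 1.97% of all tested genes called higher in that fit. Without it none of the 3 passed (edgeR adjusted p = 0.549, 0.101 and 0.123). Paired log2 fold changes of the others were −0.15 for Foxp2, 0.01 for Tle4, 0.03 for Tbr1 and 0.13 for Sox5. The 6 meningeal markers summed to 172 and 220 CPM in mutant-labelled and wild-type library 1, to 63.0 and 137 CPM in libraries 2, and to 45.2 and 35.2 CPM in libraries 3. Ttr, a gene of choroid plexus in the hippocampal list, was at 787 and 800 CPM in the libraries numbered 1 and at 115 to 219 CPM in the others. It made up most of the hippocampal sum in every library, that sum being 795 and 811 CPM in mutant-labelled and wild-type library 1. The hippocampal sum therefore describes Ttr more than the rest of its list. Endothelial markers summed to 119 to 153 CPM in mutant-labelled and 121 to 160 CPM in wild-type libraries. The summed interneuron, radial glia, pericyte, microglia, striatal, thalamic, hippocampal and oligodendrocyte lineage markers overlapped between genotypes. Of their genes only Penk, a striatal marker, passed with pairing and fell (edgeR adjusted p = 0.0277). No marker of these lists was at 0 over all libraries, and the part of these cell types in the receptor values was not tested.

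On GRCm38, Epha4 lies on chromosome 1 from 77367185 to 77515088, Epha7 on chromosome 4 from 28813131 to 28967499, and Ephb2 and Epha8 on the same chromosome from 136647539 to 136835988 and from 136929419 to 136956816. Epha6 lies on chromosome 16 from 59653483 to 60605531 and Ephb3 on the same chromosome from 21204755 to 21223305. Ephb1 lies on chromosome 9 from 101922128 to 102354693 and Ephb6 on chromosome 6 from 41605482 to 41620509. These spans hold exons and introns together. Antisense genes share 107 exon bases with Epha6 and 152 with Ephb1, and these antisense genes are not among the genes counted. Since the strand setting of the counting is not given, antisense reads there could have been counted for the receptor.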

How the data were processed

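RNA was sequenced from 6 mouse neocortex pools, with a TruSeq kit that keeps strand, per the labels' protocols. The authors deposited raw counts of reads per gene symbol, with no normalization. HTSeq 0.5.3p9, TopHat2 2.0.9, Bowtie2 2.1.0, CASAVA 1.8.2 and mm10 appear in the submitters' processing notes. What each did, the annotation and the strand setting are details not given in the sources used here. Columns were matched to libraries by title, and 0 sample columns were unused.

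Genes were tested with edgeR 4.0.16 (R 4.3.3), quasi-likelihood with robust dispersion, TMM scaling and default filtering, two-sided, with Benjamini-Hochberg adjustment over 14618 genes. Standard errors came from the F statistic. CPM use TMM-scaled library sizes, and log2 ratios of libraries a prior count of 2. DESeq2 1.42.0, RLE scaling, no filter, left-out libraries and the replicate block were alternatives. The scripts were tested on simulated data.

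All 3 same-numbered correlations exceeded the bound of 0.1, and the numbers were treated as pairs. This rests on the data, since the labels do not say what a number shares, and with 3 libraries per group deviations from a mean are not independent. Within each genotype no library was a copy of another: between libraries of 1 genotype the chi-square over genes was 7.13 to 23.1 times its degrees of freedom. Libraries of different genotypes were not compared in this way.

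Genes were located with GENCODE M21 on GRCm38, the build mm10 names, and promoters came from RefSeq (GRCm38.p6), with a window found for each of the 10 receptors. All 10 members, ephrins and other Eph receptors were named, and of the pathway lists those called and the largest paired change. 1 pathway list and 2 marker lists are not reported here. The members and lists were chosen with earlier results of these data known.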

Additional observations from a re-analysis of the deposited data

How the results depend on the processing

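The count of receptors called higher was 0 without pairing and stayed 0 with RLE scaling, DESeq2, no expression filter or any 1 library left out. It was 2 with the replicate block, 1 in DESeq2 with the block (Epha3), and 1, 2 and 0 in the blocked edgeR fit without the libraries numbered 1, 2 and 3, each of which leaves 1 residual degree of freedom. The count called lower was 0 in all of these. Over all tested genes, 7 higher and 4 lower became 288 and 218 with the block, 59 and 43 in DESeq2, 118 and 80 in DESeq2 with the block, and 11 and 9 with no expression filter. Without the libraries numbered 1, 2 and 3 the blocked counts were 141, 1119 and 35 higher and 154, 755 and 27 lower. Leaving out single libraries gave 1 to 21 higher and 2 to 14 lower. Epha3, Epha5, Epha6, Epha7, Ephb1 and Ephb2 had a positive log2 fold change in all 14 alternatives. With 1 library left out it ranged over 0.140 to 0.486 for Epha3, 0.0606 to 0.263 for Epha5, 0.171 to 0.262 for Epha6, 0.0956 to 0.210 for Epha7, 0.0738 to 0.127 for Ephb1 and 0.0316 to 0.129 for Ephb2. The sign of the others changed when 1 library was omitted, with ranges of −0.163 to 0.0542 for Epha4, −0.0676 to 0.0203 for Epha8, −0.168 to 0.0226 for Ephb3 and −0.0795 to 0.0374 for Ephb6. In the blocked fit without the libraries numbered 3, Epha8 was at 0.0085 and Ephb6 at 0.00081. The cause of these changes was not tested. Epha6 had the fewest reads, 88 to 130 per library, and the widest paired interval of the 10 receptors, −0.06 to 0.51.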
